A study of Mus musculus with 7 samples.

Results

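Cytosolic heat shock proteins are described here as 10 genes, chosen by name: the inducible HSP70 genes Hspa1a and Hspa1b, the constitutive HSP70 gene Hspa8, the HSP90 genes Hsp90aa1 and Hsp90ab1, the HSP110 gene Hsph1, the J-domain genes Dnaja1 and Dnajb1, the small heat shock gene Hspb1 and the cochaperone gene Bag3. All 10 were among the 17209 genes of the deposited count table. The libraries came from muscularis macrophages, the resident macrophages of the gut muscle coat, which were sorted for GFP at the Cx3cr1 locus from the peeled muscle layer of the mouse small intestine. The groups were 3 libraries from mice 24 h after pMCAO surgery (pMCAO 1 to pMCAO 3), a procedure that the series title calls stroke, and 4 libraries from mice 24 h after sham surgery (Sham 1 to Sham 4). The genotype of all libraries is labelled C57BL6/J, with no further description of the reporter allele, and neither age nor sex is given in the labels. Sham libraries are labelled as biological replicates, yet no library is tied to 1 animal and pMCAO 3 is described as a pool, so the p-values reflect variation between libraries, which may be technical.

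Cytosolic chaperones keep proteins folded and hold or refold those that unfold. HSP70 proteins bind and release unfolded stretches in a cycle driven by ATP, in which J-domain proteins deliver the substrate and start ATP hydrolysis, and HSP110 and BAG proteins exchange the nucleotide. HSP90 proteins act later, on clients such as steroid receptors and kinases. Heat and other proteotoxic stress activate the transcription factor HSF1, which binds heat shock elements, alternating GAA and TTC units, in the promoters of the inducible members, and warming or dissociation of tissue can itself induce these genes.

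The promoters shown are those of the inducible HSP70 pair, whose sequences bear on how far their reads can be told apart, and of Dnaja1 and Dnajb1, the J-domain genes whose values in the pMCAO and sham libraries did not overlap. Capitals mark the palindromic letters GAANNTTC, the core of a heat shock element, and each run covers 250 bases before and 50 bases after the RefSeq start on GRCm38.p6, read 5′ to 3′ in the direction of transcription.
Hspa1a, chr17:34972107-34972406, minus strand: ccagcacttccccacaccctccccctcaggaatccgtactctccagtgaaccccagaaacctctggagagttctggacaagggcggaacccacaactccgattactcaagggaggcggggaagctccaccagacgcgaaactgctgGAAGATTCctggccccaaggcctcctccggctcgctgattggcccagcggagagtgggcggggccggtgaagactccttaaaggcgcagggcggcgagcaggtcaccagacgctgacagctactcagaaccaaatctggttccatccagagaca
Hspa1b, chr17:34959189-34959488, minus strand: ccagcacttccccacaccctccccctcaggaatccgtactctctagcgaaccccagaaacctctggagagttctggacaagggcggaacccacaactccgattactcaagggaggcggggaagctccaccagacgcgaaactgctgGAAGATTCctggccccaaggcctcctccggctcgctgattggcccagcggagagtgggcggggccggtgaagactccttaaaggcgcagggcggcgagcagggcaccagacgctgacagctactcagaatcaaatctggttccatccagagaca
Dnaja1, chr4:40722218-40722517, plus strand: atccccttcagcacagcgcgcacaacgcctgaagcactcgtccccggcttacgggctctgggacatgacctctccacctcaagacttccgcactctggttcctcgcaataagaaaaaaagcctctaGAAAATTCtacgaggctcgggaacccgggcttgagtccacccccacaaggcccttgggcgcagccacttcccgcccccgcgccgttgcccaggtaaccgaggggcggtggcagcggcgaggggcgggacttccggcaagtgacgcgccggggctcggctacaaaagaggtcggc
Dnajb1, chr8:83607925-83608224, plus strand: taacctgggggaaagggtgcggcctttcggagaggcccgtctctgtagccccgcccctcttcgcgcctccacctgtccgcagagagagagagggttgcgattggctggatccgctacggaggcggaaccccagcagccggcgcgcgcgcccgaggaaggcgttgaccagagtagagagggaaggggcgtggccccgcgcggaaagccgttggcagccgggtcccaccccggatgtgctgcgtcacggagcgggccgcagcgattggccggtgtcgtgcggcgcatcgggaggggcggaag
The Hspa1a and Hspa1b runs were identical at 296 of 300 positions and both had the motif from 104 bases before the start. The Dnaja1 run shown had it from 124 bases before the start, whereas the other 2 RefSeq promoters of Dnaja1 and both of Dnajb1 held none, which says only that these letters are not in that window. The set of RefSeq promoters used here held 7 of the 10 genes and lacked Hspa8, Hsp90aa1 and Hsp90ab1. GAANNTTC was present for Hspa1a, Hspa1b, Hsph1, Dnaja1, Hspb1 and Bag3, 6 of the 7 genes, in at least 1 promoter each, and for 9.04% of all 27025 genes of the table (7.86% of its 32851 promoters). A run of 3 units, TTCNNGAANNTTC on either strand, which contains the shorter motif, was present for Hsph1 alone of the 7 genes and for 0.662% of all genes (0.603% of promoters).

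Library totals over the listed genes were 12685941 to 21680302 counts after pMCAO and 18873893 to 34432716 after sham surgery. The summed level of 7 macrophage markers was 4110 to 4564 CPM (read counts scaled to library size and TMM factors) in the pMCAO libraries. In the sham libraries it was 3924 CPM in Sham 1 and 5990 to 6282 CPM in Sham 2 to Sham 4. Every marker was counted in every library. Of these markers 6 had lower means after pMCAO (median log2 change -0.36), and C1qa, a complement component, was at 279 ± 76.9 CPM in pMCAO libraries and 546 ± 104 CPM in sham libraries without overlap (adjusted p = 0.0952 by edgeR). Lower values without overlap were seen for 6.58% of all genes. Markers of other cells were also present. The 6 fibroblast markers summed to 99.4 to 507 CPM in the pMCAO libraries and 46.9 to 148 CPM in the sham libraries, and all 6 had higher means after pMCAO. The 6 blood endothelial markers summed to 308 to 414 CPM in the pMCAO libraries and 99.0 to 264 CPM in the sham libraries, with no overlap. The 6 smooth muscle markers summed to 83.6 to 161 CPM in the pMCAO libraries and 79.7 to 231 CPM in the sham libraries. Of these 6 markers 5 had lower means after pMCAO (median log2 change -0.71), and Myh11 had a higher one. Mitochondrial ribosomal RNA took 8.26% to 12.6% of counts in the pMCAO libraries and 2.42% to 5.82% in the sham libraries. Of the remaining marker sums, that of large peritoneal macrophages (3 of 4 markers listed, without Gata6) was 32.2 to 80.4 CPM in the pMCAO libraries and 9.79 to 21.7 CPM in the sham libraries, while those of lymphocytes (35.5 to 47.0 CPM in the pMCAO libraries and 16.99 to 126 CPM in the sham libraries), neutrophils (1.12 to 28.2 CPM in the pMCAO libraries and 0.344 to 58.1 CPM in the sham libraries) and enteric glia and neurons (2.26 to 7.85 CPM in the pMCAO libraries and 1.59 to 7.90 CPM in the sham libraries) overlapped, and no adipocyte marker was listed. Sham 1 had the highest lymphocyte and neutrophil sums of all libraries, and the highest share of mitochondrial ribosomal RNA among the sham libraries. Heat shock genes are expressed in all of these cell types, and the part of other cells in the values that follow was not tested. In bulk libraries, fewer cells of a type and less RNA per cell cannot be told apart.

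None of the 10 heat shock genes passed the test between pMCAO and sham libraries after adjustment over all genes (edgeR quasi-likelihood test, threshold 0.05), where 0.0988% of all genes passed. The genes did not move together: Hspa1a, Hspa1b, Hsp90aa1, Dnaja1, Hspb1 and Bag3 had positive log2 changes, and Hspa8, Hsp90ab1, Hsph1 and Dnajb1 negative ones, with a median of 0.21 against -0.02 over all genes. At an unadjusted p under 0.05 there were 3 higher genes (Hspa1a, Hsp90aa1 and Dnaja1), against 6.97% of all genes, and 3 lower genes (Hsp90ab1, Hsph1 and Dnajb1), against 6.47% of all genes. With DESeq2 there were 6 genes at that unadjusted level and with limma-voom 7, and 0 passed after adjustment with either. By edgeR this unadjusted count was 2 without Sham 3, 2 without pMCAO 1, 3 without Sham 2, 3 without pMCAO 3, 4 without Sham 4, 4 without pMCAO 2 and 6 without Sham 1, and it was 4 without scaling factors. The count over all genes moved as well. It was 2312 in the main fit, 2591 with DESeq2, 2542 with limma-voom and 2553 without scaling factors. With a library left out it ranged from 1526 (without Sham 4) to 3089 (without pMCAO 2). The 10 genes together took 0.198% to 0.218% of the counts of the pMCAO libraries and 0.215% to 0.266% of those of the sham libraries.

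**Figure D1:**
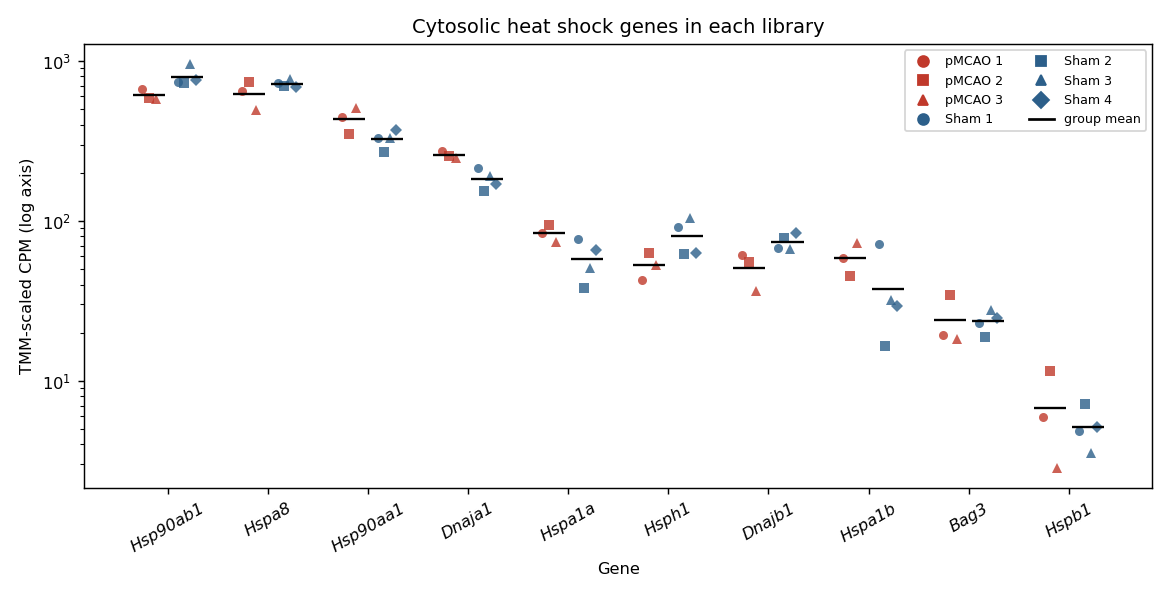
TMM-scaled CPM on a log axis of the 10 heat shock genes in each of 3 pMCAO libraries (red, left) and 4 sham libraries (blue, right), with marker shapes for the replicate number and black lines for group means. Dnaja1 lay higher in all pMCAO libraries than in any sham library, Hsp90ab1 and Dnajb1 lay lower, and the other 7 genes overlapped. Of all genes, 12.6% did not overlap (5.99% higher and 6.58% lower after pMCAO).

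Per kilobase of exon, the constitutive genes led in the reads as counted. Hsp90ab1, the constitutive HSP90, was at 204 ± 15.6 CPM per kb in pMCAO libraries and 265 ± 35.7 CPM per kb in sham libraries (SD, n = 3 and n = 4, as throughout), and Hspa8 at 145 ± 28.4 CPM per kb in pMCAO libraries and 168 ± 9.13 CPM per kb in sham libraries. Hsp90aa1, the inducible HSP90, came next at 111 ± 20.4 CPM per kb in pMCAO libraries and 82.3 ± 10.4 CPM per kb in sham libraries. Below these 3 genes the levels per kilobase were far lower. After them in the sham libraries came Dnajb1 (23.1 ± 2.58 CPM per kb), Dnaja1 (21.1 ± 2.98 CPM per kb) and Hspa1a (19.5 ± 5.76 CPM per kb), which lay within their spread of each other. Hspa1b (13.4 ± 8.56 CPM per kb), Hsph1 (11.03 ± 2.93 CPM per kb) and Bag3 (9.18 ± 1.45 CPM per kb) followed, likewise not separated beyond their spread, and Hspb1 was lowest (5.02 ± 1.44 CPM per kb). In the pMCAO libraries the order below Hsp90aa1 was Dnaja1 (30.1 ± 1.56 CPM per kb), Hspa1a (28.3 ± 3.42 CPM per kb), Hspa1b (20.9 ± 4.93 CPM per kb), Dnajb1 (15.9 ± 3.97 CPM per kb), Bag3 (9.36 ± 3.56 CPM per kb), Hsph1 (7.29 ± 1.41 CPM per kb) and Hspb1 (6.58 ± 4.30 CPM per kb). The exon length used for Dnaja1, 8629 bases, is the longest of the 10 and joins all of its annotated transcripts, so its level per kilobase is a low estimate for any shorter transcript.

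The inducible HSP70 genes Hspa1a and Hspa1b, neighbours on chromosome 17, showed the widest spread among sham libraries of the abundant members. Hspa1a (ENSMUSG00000091971, chromosome 17, 34969190 to 34972156 of GRCm38) was at 83.8, 94.1 and 73.8 CPM in pMCAO 1 to pMCAO 3, against 77.0, 37.9, 50.5 and 65.6 CPM in Sham 1 to Sham 4. Only Sham 1 among the sham libraries reached the pMCAO range. Its log2 change was 0.54 (SE 0.23, 95% confidence interval 0.04 to 1.03, adjusted p = 0.331 by edgeR). Hspa1b (ENSMUSG00000090877, chromosome 17, 34956436 to 34959238) was at 58.2, 45.1 and 72.7 CPM in pMCAO 1 to pMCAO 3, against 72.0, 16.5, 32.0 and 29.4 CPM in Sham 1 to Sham 4. Again Sham 1 lay among the pMCAO libraries while the other sham libraries lay below all of them, and the highest sham value was 4.37 times the lowest, against a median of 1.54 times over 10913 genes with means of at least 5 CPM in each group. The log2 change of Hspa1b was 0.65 (SE 0.39, interval -0.20 to 1.50, adjusted p = 0.497 by edgeR). With a library left out it ranged from 0.40 without Sham 2 (adjusted p = 0.729 by edgeR) to 1.18 without Sham 1 (adjusted p = 0.0967). Sham 1 also had the lowest macrophage marker sum of all libraries, and the part of its cell composition in these values was not tested.

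The reads of the HSP70 pair could not be fully separated. Of the stretches of 100 bases, the read length, in the longest Hspa1a transcript, 47.1% also occurred in Hspa1b, and 49.9% of those of Hspa1b occurred in Hspa1a. How the authors counted reads that fit several genes is not stated by any label or header, so the split between the pair is uncertain, and a gene annotated on the opposite strand overlaps Hspa1a. Hspa1b took 41.0%, 32.4% and 49.6% of the reads of the pair in pMCAO 1 to pMCAO 3, against 48.3%, 30.3%, 38.8% and 31.0% in Sham 1 to Sham 4. Summed, the pair was at 142, 139 and 147 CPM in pMCAO 1 to pMCAO 3, against 149, 54.4, 82.6 and 94.9 CPM in Sham 1 to Sham 4. The pMCAO libraries lay close together and Sham 1 lay just above them. The summed log2 change was 0.58 (adjusted p = 0.348 by edgeR).

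Hspa8, the constitutive HSP70 that also serves clathrin uncoating and chaperone-mediated autophagy, was the steadiest member among sham libraries. Hspa8 (ENSMUSG00000015656, chromosome 9, 40800984 to 40810087) was at 645, 733 and 492 CPM in pMCAO 1 to pMCAO 3, against 731, 698, 771 and 683 CPM in Sham 1 to Sham 4. pMCAO 3 was the lowest library and pMCAO 2 lay within the sham range, and the highest sham value was 1.13 times the lowest. The log2 change was -0.21 (SE 0.17, interval -0.58 to 0.16, adjusted p = 0.632 by edgeR). Of its stretches of 100 bases, 32.1% occurred in other annotated genes, 28.9% in Gm26825. Among the sharing genes in the count table Gm8355 had the most reads, at 39.7 ± 5.66 CPM in pMCAO libraries and 48.6 ± 3.57 CPM in sham libraries.

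The HSP90 genes had log2 changes of opposite sign, neither of them past the threshold. Hsp90aa1 (ENSMUSG00000021270, chromosome 12, 110690605 to 110702728) was at 448, 349 and 508 CPM in pMCAO 1 to pMCAO 3, against 328, 270, 328 and 369 CPM in Sham 1 to Sham 4. pMCAO 1 and pMCAO 3 lay above all sham libraries and pMCAO 2 below Sham 4. The log2 change was 0.43 (SE 0.18, interval 0.04 to 0.81, adjusted p = 0.322 by edgeR). Hsp90ab1 (ENSMUSG00000023944, chromosome 17, 45567775 to 45573271) was at 666, 588 and 582 CPM in pMCAO 1 to pMCAO 3, against 738, 730, 954 and 755 CPM in Sham 1 to Sham 4. All pMCAO libraries lay below all sham libraries, as for 6.58% of all genes, with Sham 3 far above the rest. The log2 change was -0.38 (SE 0.17, interval -0.74 to -0.02, adjusted p = 0.351 by edgeR). None of the 100-base stretches of Hsp90ab1 occurred in another annotated gene, whereas 47.5% of those of Hsp90aa1 did, 39.6% in Gm12346. Gm12346 was at 92.6 ± 14.1 CPM in pMCAO libraries and 96.3 ± 18.7 CPM in sham libraries (log2 change -0.06, adjusted p = 0.930 by edgeR). Reads could therefore be shared between Hsp90aa1 and Gm12346, and the part of such sharing in the Hsp90aa1 values was not tested.

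**Figure D2:**
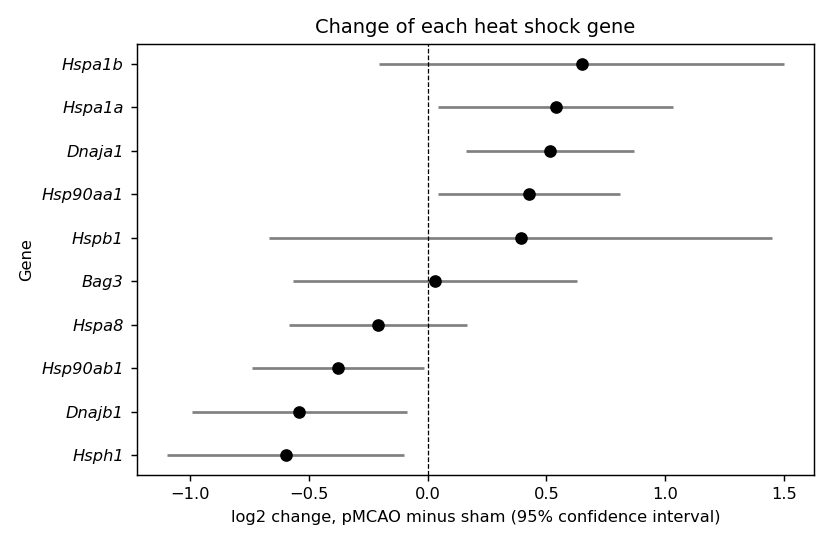
Log2 change, pMCAO minus sham, of the 10 heat shock genes on the x axis, with points for the edgeR estimate and bars for the 95% confidence interval, ordered by size. Hspa1b is at the top (0.65) and Hsph1 at the bottom (-0.60), and the intervals of 6 genes leave out 0 before adjustment over all genes.

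Relative to constitutive HSP90 reads, inducible HSP90 reads were more numerous in every pMCAO library than in any sham library. The ratio of Hsp90aa1 to Hsp90ab1 reads, which needs no scaling between libraries and is not corrected for length, was 0.672, 0.593 and 0.872 in pMCAO 1 to pMCAO 3, against 0.444, 0.370, 0.343 and 0.490 in Sham 1 to Sham 4. Every pMCAO library lay above every sham library. On the log2 scale the ratio was -0.51 ± 0.28 in pMCAO libraries and -1.30 ± 0.24 in sham libraries, a difference of 0.79 with an exact permutation p = 0.0571 (two-sided), the smallest that 3 against 4 libraries allow, or 0.114 adjusted over the 2 ratios tested. The ratio of Hspa1a plus Hspa1b to Hspa8 reads was 0.220, 0.190 and 0.298 in pMCAO 1 to pMCAO 3, against 0.204, 0.0779, 0.107 and 0.139 in Sham 1 to Sham 4. Sham 1 lay above pMCAO 2 and the other sham libraries lay below all pMCAO libraries. The log2 difference was 0.90 (exact permutation p = 0.114, two-sided, and 0.114 adjusted over the 2 ratios). Neither ratio passed the threshold.

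**Figure D3:**
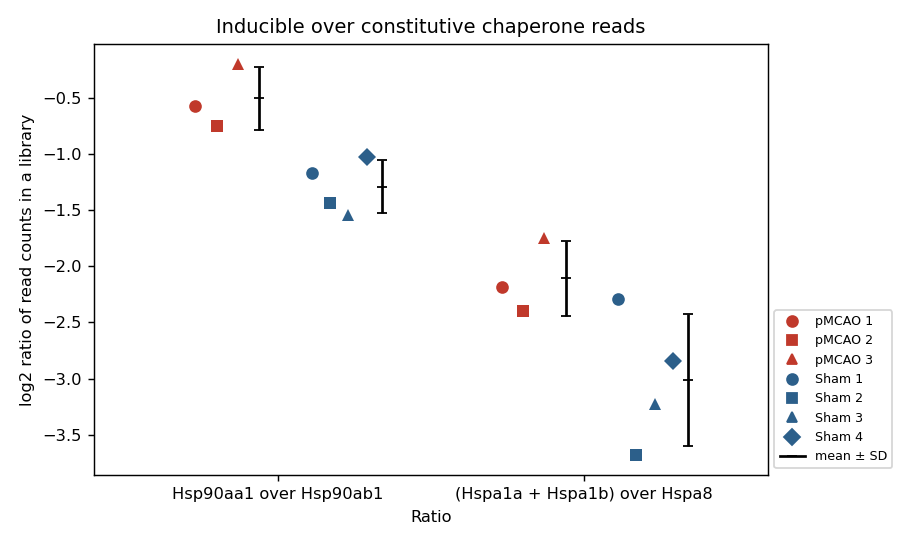
Log2 ratio of read counts within each library for Hsp90aa1 over Hsp90ab1 and for Hspa1a plus Hspa1b over Hspa8, in 3 pMCAO libraries (red, left) and 4 sham libraries (blue, right), with mean ± SD in black. The HSP90 ratio does not overlap between groups, whereas for HSP70 Sham 1 reaches the pMCAO range.

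The J-domain genes Dnaja1 and Dnajb1, which deliver substrates to HSP70, also had changes of opposite sign. Values did not overlap between groups for either, nor for 5.99% of all genes (higher after pMCAO) and 6.58% (lower). Dnaja1 (ENSMUSG00000028410, chromosome 4, 40722150 to 40737149) was at 275, 256 and 248 CPM in pMCAO 1 to pMCAO 3, against 213, 153, 191 and 171 CPM in Sham 1 to Sham 4. All pMCAO libraries lay above all sham libraries, and the log2 change was 0.51 (SE 0.17, interval 0.16 to 0.87, adjusted p = 0.208 by edgeR), the smallest adjusted p of the 10 genes. Dnajb1 (ENSMUSG00000005483, chromosome 8, 83608193 to 83612653), the HSP40 that is strongly heat-inducible, was at 61.0, 55.2 and 36.7 CPM in pMCAO 1 to pMCAO 3, against 67.3, 77.7, 67.1 and 83.9 CPM in Sham 1 to Sham 4. All pMCAO libraries lay below all sham libraries, and the log2 change was -0.54 (SE 0.21, interval -0.99 to -0.09, adjusted p = 0.288 by edgeR). The reads per library of Dnaja1 over those of Dnajb1, a ratio chosen after its values were seen and therefore not tested, were 4.50, 4.64 and 6.78 in pMCAO 1 to pMCAO 3 and 3.16, 1.97, 2.84 and 2.04 in Sham 1 to Sham 4. Exon bases of Dnaja1 are shared with Smu1 on the opposite strand, and without a stated strand setting their reads cannot be told apart there. Of the 100-base stretches of Dnaja1, 24.0% occurred in other genes, 12.98% in Gm15542, which was at 21.2 ± 2.86 CPM in pMCAO libraries and 24.2 ± 4.16 CPM in sham libraries. Gm7816 also shared stretches, at 14.8 ± 3.16 CPM in pMCAO libraries and 17.6 ± 6.82 CPM in sham libraries, whereas no stretch of Dnajb1 occurred in another gene.

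Hsph1, the HSP110 that exchanges nucleotide on HSP70 and drives disaggregation, had a lower mean after pMCAO that did not pass the test. Hsph1 (ENSMUSG00000029657, chromosome 5, 149614287 to 149636376) was at 42.6, 63.2 and 53.0 CPM in pMCAO 1 to pMCAO 3, against 91.8, 61.9, 104 and 62.7 CPM in Sham 1 to Sham 4. pMCAO 2 lay just above Sham 2 and Sham 4, while Sham 1 and Sham 3 stood well above all pMCAO libraries. The log2 change was -0.60 (SE 0.23, interval -1.09 to -0.10, adjusted p = 0.285 by edgeR). Bag3, the exchange factor that links HSP70 to selective autophagy, was at 19.2, 34.5 and 18.2 CPM in pMCAO 1 to pMCAO 3, against 22.8, 18.8, 27.7 and 24.7 CPM in Sham 1 to Sham 4. The pMCAO group held the highest library (pMCAO 2) and the lowest (pMCAO 3), and pMCAO 1 lay within the sham range. Its log2 change was 0.03 (SE 0.28, interval -0.57 to 0.63, adjusted p = 0.975 by edgeR) and -0.32 without pMCAO 2. Hspb1, the small heat shock protein that is abundant in muscle, was at 5.90, 11.6 and 2.86 CPM in pMCAO 1 to pMCAO 3, against 4.88, 7.14, 3.53 and 5.14 CPM in Sham 1 to Sham 4. The pMCAO group held the highest and the lowest library, and the log2 change was 0.39 (SE 0.49, interval -0.67 to 1.45, adjusted p = 0.770 by edgeR) and -0.25 without pMCAO 2. Bag3 lies on chromosome 7 (ENSMUSG00000030847, 128523616 to 128546981) and Hspb1 on chromosome 5 (ENSMUSG00000004951, 135887919 to 135889563).

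The authors' deposited table likewise called none of the 10 genes at an FDR under 0.05, but its log2 fold changes differed in size from those above, and the model behind them is not given in the sources used here. In the authors' deposited table Hspa1b had 2.00 (FDR 0.0724), Hspa1a 1.04 (FDR 0.165), Hsp90aa1 0.82 (FDR 0.162) and Dnaja1 0.77 (FDR 0.177). The authors' deposited table gave Dnajb1 -0.76 (FDR 0.268), Hsph1 -0.36 (FDR 0.621), Hspa8 -0.32 (FDR 0.512), Hsp90ab1 -0.23 (FDR 0.626) and Bag3 -0.01 (FDR 0.989). Hspb1, at -0.87 (FDR 0.510) in the authors' deposited table, and Bag3 had the opposite sign there.

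Of 82 measured genes in 9 lists of other chaperones, HSF1 regulators and targets, and stress genes, 0 passed after adjustment over all genes by edgeR, 10 had an unadjusted p under 0.05 (4 higher and 6 lower), where 13.4% of all genes had one, and the median log2 change was -0.10. Lower means were found for 50 of these 82 genes and for 8839 of all 17209 genes, whose median was -0.02. Hsf1, the master regulator, was at 18.9 ± 3.67 CPM in pMCAO libraries and 25.3 ± 8.15 CPM in sham libraries (adjusted p = 0.557). Hsf2, a related factor, was at 29.1 ± 6.08 CPM in pMCAO libraries and 24.9 ± 3.70 CPM in sham libraries, and Hsbp1, a negative regulator of HSF1, at 85.8 ± 23.3 CPM in pMCAO libraries and 111 ± 15.4 CPM in sham libraries. The median log2 change of these 3 genes was -0.38. None of them separated the groups by the test.

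Of 13 HSP90 paralogs and cochaperones, 10 had lower means and the median was -0.28. Stip1, which bridges HSP70 and HSP90, was at 49.1, 45.3 and 40.5 CPM in pMCAO 1 to pMCAO 3, against 71.8, 58.7, 85.0 and 49.7 CPM in Sham 1 to Sham 4 (log2 change -0.56, adjusted p = 0.284 by edgeR). The groups did not overlap for Stip1, nor for 6.58% of all genes (lower after pMCAO). Fkbp4, a cochaperone of steroid receptors, was at 19.3 ± 7.06 CPM in pMCAO libraries and 31.4 ± 6.25 CPM in sham libraries (log2 change -0.69, adjusted p = 0.308 by edgeR). Fkbp5, its counterpart that glucocorticoids induce, was at 272, 169 and 217 CPM in pMCAO 1 to pMCAO 3, against 107, 147, 163 and 59.9 CPM in Sham 1 to Sham 4 (log2 change 0.88, adjusted p = 0.208 by edgeR). These receptor cochaperones thus had changes of opposite sign.

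Of 14 other J-domain genes, 6 had higher and 8 lower means, with a median of -0.04. Dnajb9, a cofactor of the HSP70 of the endoplasmic reticulum, was at 294, 195 and 306 CPM in pMCAO 1 to pMCAO 3, against 176, 149, 157 and 129 CPM in Sham 1 to Sham 4 (log2 change 0.80, SE 0.19, adjusted p = 0.117 by edgeR). It did not overlap between groups, nor did 5.99% of all genes (higher after pMCAO). Dnajb9 passed with DESeq2 (adjusted p = 0.0118) and by edgeR without pMCAO 2 (adjusted p = 0.0332). Dnajb4, a cytosolic relative of Dnajb1, was at 90.8 ± 15.5 CPM in pMCAO libraries and 63.9 ± 8.99 CPM in sham libraries (log2 change 0.51, adjusted p = 0.272 by edgeR). Dnajb2, a J-domain protein best known in neurons, was at 2.17 ± 0.696 CPM in pMCAO libraries and 5.21 ± 1.68 CPM in sham libraries. The sign of Dnajb4 was thus that of Dnaja1 and not that of Dnajb1.

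The other HSP70 and HSP110 genes (7 of 10 with lower means, median -0.05) were led by Hyou1, the HSP110 of the endoplasmic reticulum, at 37.3 ± 3.21 CPM in pMCAO libraries and 55.7 ± 8.75 CPM in sham libraries (adjusted p = 0.247 by edgeR). Hspa5, the HSP70 of the same compartment known as BiP, was at 1063 ± 118 CPM in pMCAO libraries and 1392 ± 257 CPM in sham libraries. Both reticulum genes thus had lower means after pMCAO. Hspa13, an HSP70 relative of the same compartment, was at 48.0 ± 1.54 CPM in pMCAO libraries and 40.3 ± 4.64 CPM in sham libraries. Of 9 HSP70 exchange factors and cochaperones (5 lower, median -0.16), Bag6, a chaperone of membrane proteins, was at 40.1 ± 4.46 CPM in pMCAO libraries and 59.5 ± 9.61 CPM in sham libraries (adjusted p = 0.258 by edgeR). Sil1, an exchange factor of BiP, was at 11.3 ± 3.59 CPM in pMCAO libraries and 18.1 ± 8.13 CPM in sham libraries. Bag5, a BAG-domain protein, was at 14.7 ± 1.97 CPM in pMCAO libraries and 17.9 ± 2.99 CPM in sham libraries. Most members of these lists thus had lower means, as did most of all genes, and none passed the threshold.

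Of 10 chaperonin genes, which encode the folding chambers of the cytosol and mitochondria, 7 had lower means (median -0.13). Cct5, a subunit of the cytosolic chamber, was at 121 ± 38.6 CPM in pMCAO libraries and 163 ± 9.67 CPM in sham libraries. Cct7, another subunit, was at 41.0 ± 13.6 CPM in pMCAO libraries and 56.4 ± 4.73 CPM in sham libraries. Hspd1, the mitochondrial HSP60, was at 79.6 ± 7.54 CPM in pMCAO libraries and 93.4 ± 5.52 CPM in sham libraries. For all 3 the mean was lower after pMCAO.

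Of 5 other HSF1 targets, 4 had lower means (median -0.21). Mrpl18, a mitochondrial ribosomal protein, was at 26.6 ± 4.75 CPM in pMCAO libraries and 33.4 ± 10.2 CPM in sham libraries. Cacybp, a calcyclin-binding protein, was at 75.2 ± 30.1 CPM in pMCAO libraries and 92.0 ± 21.9 CPM in sham libraries. Ubb, a polyubiquitin gene, was at 429 ± 111 CPM in pMCAO libraries and 497 ± 103 CPM in sham libraries. The groups' spreads overlapped for each.

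Of 4 other small heat shock genes listed, 3 had lower means (median -0.38). Hspb6 was at 7.01 ± 2.83 CPM in pMCAO libraries and 11.1 ± 1.45 CPM in sham libraries. Hspb7 was at 0.949 ± 0.691 CPM in pMCAO libraries and 2.59 ± 2.85 CPM in sham libraries. Cryab was at 2.43 ± 1.39 CPM in pMCAO libraries and 2.61 ± 1.79 CPM in sham libraries. For Hspb7 the SD in sham libraries exceeded the mean.

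Tissue dissociation and sorting can induce heat shock and immediate early genes together, and 14 immediate early genes are given beside them. They summed to 9048, 12235 and 9351 CPM in pMCAO 1 to pMCAO 3, against 7531, 9618, 8214 and 10445 CPM in Sham 1 to Sham 4. The groups overlapped, with pMCAO 2 highest and Sham 1 lowest. The part of dissociation in the heat shock values was not tested. The median log2 change was 0.20, with 10 of 14 higher means. Atf3, a stress-induced transcription factor, was at 265 ± 81.0 CPM in pMCAO libraries and 163 ± 34.9 CPM in sham libraries (log2 change 0.70, adjusted p = 0.193 by edgeR). Btg2, an antiproliferative gene, was at 651 ± 59.9 CPM in pMCAO libraries and 542 ± 102 CPM in sham libraries. Jun, a subunit of AP-1, was at 1709 ± 304 CPM in pMCAO libraries and 1468 ± 293 CPM in sham libraries.

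**Figure D4:**
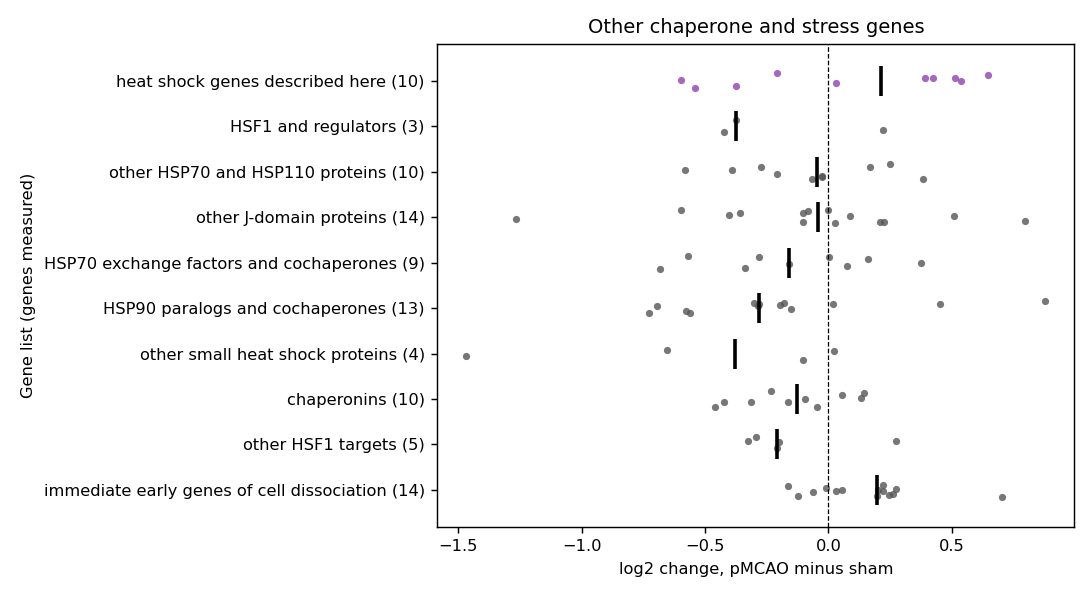
Log2 change, pMCAO minus sham, on the x axis of each measured gene of the 10 heat shock genes (purple, top) and of 9 other lists (grey), with black bars for list medians and numbers of measured genes in brackets. The 10 genes split to either side of 0 (median 0.21), and 8 of the 9 other lists have negative medians, the exception being immediate early genes (0.20). The median over all genes is -0.02.

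The genes whose profile over the 7 libraries lay nearest to that of the summed HSP70 pair, by the mean absolute distance of centred log2 CPM over 11578 genes with a mean of at least 5 CPM, were Scd2 (distance 0.09), Gm9938 (0.13) and Megf9 (0.14). Scd2, a stearoyl-CoA desaturase, was at 17.6 ± 2.84 CPM in pMCAO libraries and 11.5 ± 4.64 CPM in sham libraries. Nearest to Hspa8 lay Tcp1, a subunit of the cytosolic chaperonin (distance 0.04, at 104 ± 16.5 CPM in pMCAO libraries and 117 ± 9.40 CPM in sham libraries), Stk40 (0.06) and Prpsap1 (0.06). No test was made of this likeness.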

How the data were processed

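RNA-seq read counts per gene were produced by the authors. STAR, featureCounts, limma and GRCm38 (mm10) are named, per the submitters' processing notes, with neither versions nor settings. Libraries were made from 2.0 ng of total RNA and sequenced as paired reads of 100 bases, per the labels' protocols. No source used here gives the strand setting or the annotation release. The deposited CPM values equal count over library total to within 0.0005, and the log2 fold changes, mean log2 expression, p-values and FDR in the deposited table are the authors'. Per the file headers the fold change is stroke with sham set to 0. The listed genes reach at least 0.507 CPM in 4 of 7 libraries.

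From the deposited counts, all 17209 genes were fitted with the edgeR (4.0.16, R 4.3.3) quasi-likelihood test with robust dispersion, TMM factors, the edgeR expression filter and group as the only term, two-sided, with Benjamini-Hochberg adjustment over all genes and a threshold of 0.05. The fit was tested on simulated counts that varied less between libraries than these data do. That check therefore does not show how the fit performs at the spread seen here. CPM in the text is TMM-scaled, the SE is the log2 change over the square root of F, and a level per kb is divided by the union of exons in GENCODE M21. Ratios of counts within a library were compared by exact permutation tests (scipy 1.17.1). Promoters are RefSeq's for GRCm38.p6, and shared stretches were sought as exact matches, on either strand, in GENCODE M21 transcripts. The naming rule took all 10 heat shock genes, the 3 smallest p of each list and the 3 nearest profiles to the HSP70 pair and to Hspa8. C1qa, by the smallest p of its marker list, was added after its value was seen. Gm8355, Gm26825, Gm12346, Gm15542, Gm7816 and Smu1 are outside it and were picked, with values in view, because they can share reads with a heat shock gene. Alternatives were other scaling, filters and tools (DESeq2 1.42.0, limma-voom 3.58.1), a replicate block and leaving out each library. The genes and lists were chosen with earlier results of these data known. In the deepest library (Sham 4) 3 counts are 0.0871 CPM and in the shallowest (pMCAO 1) 0.236 CPM, for counting error only. Molecular identifiers are not mentioned, so duplicate reads may count 1 molecule again, and the spread between libraries serves as the error.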

Additional observations from a re-analysis of the deposited data

Results flagged for a closer look

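Hsp90ab1 in Sham 3, at 954 CPM, stood apart from the other sham libraries, with a gap to the nearest of 0.892 of the whole sham range, above Dixon's critical value for 4 samples at the 95% level. This was the only such library in 12 sham groups of values examined (10 genes and 2 ratios), and chance flags about 1 in 20. Without Sham 3 the log2 change of Hsp90ab1 was -0.28, against -0.38 over all libraries, and the pMCAO libraries lay below the remaining sham libraries as well.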

How the results depend on the processing

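None of the 10 heat shock genes passed the threshold under any of the settings tried, where the smallest adjusted p was 0.0900 (Dnaja1 with DESeq2), and with sham or pMCAO libraries left out in turn the count stayed at 0. The log2 changes of Hspa1a, Hspa1b, Hspa8, Hsp90aa1, Hsp90ab1, Hsph1, Dnaja1 and Dnajb1 kept their sign under every setting. That of Bag3 turned to -0.0895 without scaling factors, and ranged from -0.32 to 0.20 with a library left out, that of Hspb1 from -0.25 to 0.76, and that of Gm12346 from -0.133 to 0.0681. Cryab was at 0.59 with the replicate block and from -0.682 to 0.369 with a library left out. The median log2 change of all genes was -0.145 without scaling factors, against -0.02. The count over all genes was 34 with upper-quartile factors, 29 without scaling factors (14 higher and 15 lower, against 12 higher and 5 lower), 75 over genes of at least 5 CPM, 476 with DESeq2 and 39 with limma-voom, against 17, and from 0 to 100 with a library left out. Omitting Sham 1 gave 47, omitting Sham 2 also 47, omitting Sham 4 gave 9, omitting pMCAO 2 gave 100, omitting pMCAO 3 gave 7, and omitting pMCAO 1 gave 0 (edgeR, with 1987 at an unadjusted p under 0.05). Of the other lists, 1 gene (Dnajb9) passed with DESeq2 and, with a library left out, from 0 to 1 genes passed, the 1 being Dnajb9 without pMCAO 2 (adjusted p = 0.0332). The HSP90 ratio difference ranged from 0.63 to 0.91 and the HSP70 ratio difference from 0.68 to 1.14 with a library left out, where the exact permutation p cannot go below 0.1 with 3 against 3 libraries. The replicate number from the titles, used as a block, left 0 heat shock genes and 21 genes in all past the threshold. No pMCAO library has the number of Sham 4, so Sham 4 adds nothing to the group difference in that fit. Deviations from the group mean correlated at -0.08, -0.01 and 0.10 between same-numbered libraries for numbers 1 to 3. With so few libraries these values cannot show whether same-numbered libraries share a batch, and the labels name none. The cause of these shifts was not tested.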

Other observations

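By sequence, the 10 genes fall into those with and without stretches that also occur in another annotated gene, on either strand. For Dnaja1 these include Smu1, which overlaps it on the opposite strand. Stretches of 100 bases found in another gene made up 56.5% of Hspa1a, 49.9% of Hspa1b, 47.5% of Hsp90aa1, 42.7% of Hspb1, 32.1% of Hspa8 and 24.0% of Dnaja1, and 0 of Hsp90ab1, Hsph1, Dnajb1 and Bag3. Of these 10, all genes with positive log2 changes other than Bag3 had shared stretches, and all with negative changes other than Hspa8 had none. The log2 changes of Hspb1 (0.39, SE 0.49) and Bag3 (0.03, SE 0.28) turned negative without pMCAO 2. How genes with and without shared stretches divide by sign over all genes was not determined. Hspa1a and Hspa1b shared stretches mainly with each other, so they are not separate cases. The pattern was noticed after the values were seen and was not tested.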
